A study of Mus musculus with 6 samples.

Results

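The genes described here encode 36 proteins of blood plasma that the liver is known to secrete: 16 carriers and inhibitors, 12 proteins of clotting and fibrinolysis, and 8 serpins, a family of protease inhibitors. They were taken by gene symbol, and each symbol matched 1 line, so they make up 36 of 23233 gene lines in the deposited table. RNA was measured in whole guts of 3 samples of Ret null mouse embryos at stage E10.5, homozygous for a null allele of the receptor gene Ret. They were set against 3 samples of wildtype gut of the same stage. Both genotypes carry the strain label C57BL/6J, the series calls the embryos male, and no treatment is given. The labels do not say how many embryos a sample held, from how many litters they came, or which part of Ret the null allele lacks. The authors combined the libraries of a genotype into 1 FPKM value (fragments scaled to transcript length and to library size) per gene. No value per sample was at hand, so the spread between samples cannot be shown and read depth is unknown.

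Most plasma proteins come from hepatocytes, and in the embryo from hepatoblasts, the cells of the liver bud that grows out of foregut endoderm beside the stomach and duodenum. Albumin and alpha-fetoprotein are the classic early products of these cells, and the transcription factors of the HNF1, HNF4, FOXA and C/EBP families are known to drive many hepatic genes. The visceral endoderm of the yolk sac makes several of the same carriers. Some members are made more widely: the serpins of Serpinf1 and Serping1 are also products of mesenchymal cells.

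The targeted gene went with the labels, at 0.0354 FPKM in Ret null gut and 8.80 FPKM in wildtype gut. Xist, whose RNA shuts down the X it comes from in female cells, stood at 31.8 FPKM in Ret null gut and 0.136 FPKM in wildtype gut, although the series calls all embryos male. The 4 Y-linked genes Ddx3y, Eif2s3y, Kdm5d and Uty, named after their values were seen, lay at 3.25 to 18.1 FPKM in Ret null gut and 6.47 to 29.7 FPKM in wildtype gut, and all 4 were lower. With 1 value per genotype it cannot be seen which libraries carried Xist, and no result could be computed without them. In bulk RNA of a whole organ, more cells of a type and more RNA per cell cannot be told apart.

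The plasma protein genes were mostly higher in Ret null gut. Of the 36 members, 21 rose, 1 fell, 4 were tested without passing and 10 were not tested by the authors. A gene is said to rise or fall where its q, the p-value of the authors' Cuffdiff test adjusted over 13430 tested lines, was under 0.05. Of all tested lines 14.6% passed, 5.69% as higher and 8.88% as lower. By value alone 31 members were higher in Ret null gut, 4 were lower and F9 was listed at 0 in both genotypes. The median log2 fold change of the 36 members was 1.46 with 1 FPKM added to each genotype, beside a median of 0 over all 23233 lines on the same scale. With no FPKM added, over members above 0 in both genotypes, it was 2.98.

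Which members could be tested depended on their level. The 13 members at 1 FPKM or more in wildtype gut were all tested, and 11 of them rose, 1 fell and 1 did not pass, beside 4.86% called higher among all tested lines at that wildtype level. Of the 23 members under 1 FPKM in wildtype gut, 13 were tested, mostly through their Ret null value, and 10 of these rose. Among all tested lines under 1 FPKM in wildtype gut 33.2% were called higher, so calls were common in this range and the count of low members is given as a description.

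The summed level of the 36 members was 511 FPKM in Ret null gut and 120 FPKM in wildtype gut, a ratio of 4.27. Alb and Afp made up 43.3% of the sum in Ret null gut and 4.27% of it in wildtype gut. The other 34 members summed to 290 FPKM in Ret null gut and 114 FPKM in wildtype gut, a ratio of 2.53. The leading members differed as well: these were Afp, Alb and Rbp4 in Ret null gut, and Serpinf1, Serping1 and Rbp4 in wildtype gut. In Ret null gut 15 members reached 5 FPKM, against 6 in wildtype gut.

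**Figure D1:**
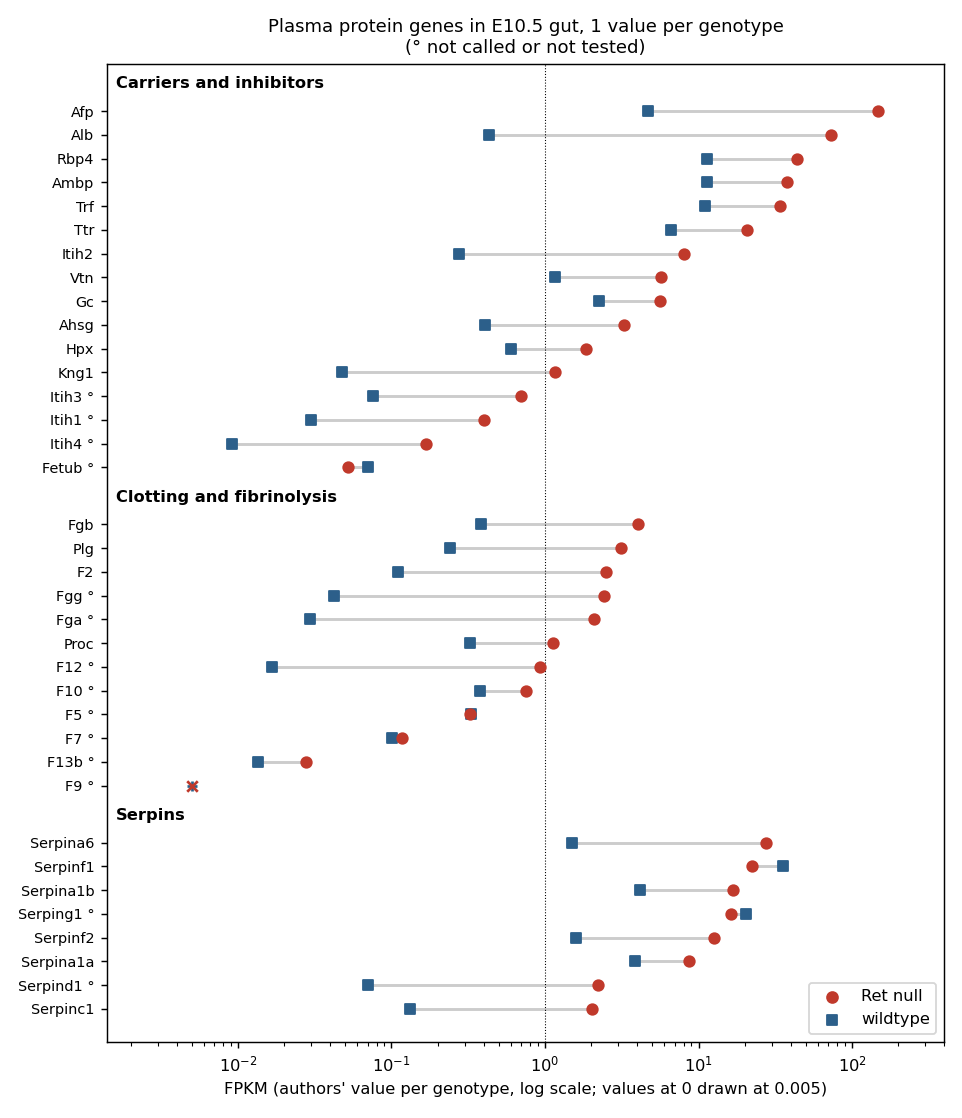
FPKM of each of the 36 members on a log axis, as the authors' value in Ret null gut (circles) and wildtype gut (squares), grouped by role and ordered by the Ret null value, with no error bars because the table holds 1 value per genotype. The circle lies right of the square for 31 members, and the largest gap among called members is that of Alb, at 72.8 FPKM in Ret null gut and 0.433 FPKM in wildtype gut.

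All 12 tested carriers and inhibitors rose. Of these, 7 were at 1 FPKM or more in wildtype gut, where 4.86% of all tested lines were called higher. The other 5 were under 1 FPKM in wildtype gut, where 33.2% of all tested lines were called higher. The median log2 fold change of the 16 carriers and inhibitors was 1.53 with 1 FPKM added and 2.64 with none added. Their summed level was 385 FPKM in Ret null gut and 50.5 FPKM in wildtype gut. The largest rise was in Alb, which encodes albumin, the main carrier and osmotic protein of plasma. Alb stood at 72.8 FPKM in Ret null gut and 0.433 FPKM in wildtype gut, a 168-fold difference with a log2 fold change of 7.39 ± 0.56. Values after ± are standard errors of the log2 fold change, obtained by dividing it by the authors' test statistic. Afp, which encodes the fetal albumin relative alpha-fetoprotein, stood at 148 FPKM in Ret null gut and 4.68 FPKM in wildtype gut (log2 fold change 4.99 ± 0.27). Afp was thus the most abundant member in Ret null gut, ranking 417 of 23233 lines there and 9918 in wildtype gut. Alb ranked 1014 in Ret null gut and 14380 in wildtype gut. The authors' deposited table gives q = 0.000775, the smallest q it holds, for both and for every other member described as changed without another q.

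The promoters of Alb, Afp, Gc and Fga are shown because each holds the letters of an HNF1 motif close to its start. Each sequence is the 250 bases before the RefSeq start, 5′ to 3′ on the strand of the gene, from RefSeq on the build GRCm38.p6. The windows are chr5:90460620-90460869 (plus strand) for Alb, chr5:90490464-90490713 (plus) for Afp, chr5:89457899-89458148 (minus) for Gc and chr3:83025903-83026152 (plus) for Fga. Capitals mark exact matches on either strand to the searched letters GTTAATNAT (HNF1), TGTTTGC or TGTTTAC (FOXA), CAAAGTCCA (HNF4) and TTGCNNAA (C/EBP).
Alb: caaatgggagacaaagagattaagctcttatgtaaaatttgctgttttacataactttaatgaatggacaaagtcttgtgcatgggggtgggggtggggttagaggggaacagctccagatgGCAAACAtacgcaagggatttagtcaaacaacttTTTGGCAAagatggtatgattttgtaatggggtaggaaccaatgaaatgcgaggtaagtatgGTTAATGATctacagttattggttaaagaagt
Afp: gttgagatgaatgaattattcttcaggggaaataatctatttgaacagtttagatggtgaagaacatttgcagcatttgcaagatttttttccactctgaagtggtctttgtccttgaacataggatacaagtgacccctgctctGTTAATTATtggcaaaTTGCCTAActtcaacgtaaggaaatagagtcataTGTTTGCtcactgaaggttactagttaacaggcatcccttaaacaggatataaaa
Gc: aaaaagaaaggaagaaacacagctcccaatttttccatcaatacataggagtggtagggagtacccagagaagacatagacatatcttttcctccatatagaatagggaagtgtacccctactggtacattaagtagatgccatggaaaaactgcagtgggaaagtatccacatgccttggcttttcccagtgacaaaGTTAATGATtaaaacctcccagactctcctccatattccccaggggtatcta
Fga: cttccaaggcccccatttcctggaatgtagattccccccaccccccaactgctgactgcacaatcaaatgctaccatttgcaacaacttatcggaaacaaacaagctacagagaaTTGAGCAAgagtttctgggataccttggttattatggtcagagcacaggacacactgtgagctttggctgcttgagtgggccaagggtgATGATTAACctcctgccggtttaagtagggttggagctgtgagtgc

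The HNF1 letters ended 24 bases before the start of Alb, 97 before Afp, 44 before Gc and 38 before Fga, on the opposite strand in Fga. Alb and Afp also held the FOXA letters TGTTTGC and the C/EBP letters, and Fga the C/EBP letters. None of the matches shown overlapped another. Of the 36 members, 29 had a promoter in the RefSeq table, and 5 of these (Alb, Afp, Gc, Fga and F13b) held the HNF1 letters within 250 bases before to 50 after the start the table uses, beside 0.801% of all 32851 windows. The C/EBP letters were found in 12 of 29 members and 10.8% of windows, TGTTTGC in 7 members and 5.07% of windows, TGTTTAC in 2 members and 3.65% of windows, and CAAAGTCCA in 0 members and 0.475% of windows. The start used for F13b lies inside the span of its gene in RefSeq, so its window is not shown. These are matches of letters, not measured binding sites. Members with the HNF1 letters did not share one outcome: Alb, Afp and Gc rose, Fga was tested without passing, and F13b was not tested.

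Carriers of vitamins, hormones, iron and heme rose by less than Alb and Afp, and several were well above 1 FPKM in wildtype gut already. Rbp4, the carrier of retinol, stood at 44.1 FPKM in Ret null gut and 11.4 FPKM in wildtype gut (log2 fold change 1.95 ± 0.29; chr19:38116620-38125321 in mm10). Ttr, the transthyretin gene, whose product carries thyroid hormone and binds the retinol carrier, stood at 20.8 FPKM in Ret null gut and 6.66 FPKM in wildtype gut (1.64 ± 0.27). Trf, which encodes the iron carrier transferrin, stood at 34.1 FPKM in Ret null gut and 10.996 FPKM in wildtype gut (1.63 ± 0.21; chr9:103208876-103230286). These 3 genes and Ambp rose by similar amounts, with log2 fold changes of 1.63 to 1.95. Gc, which encodes the vitamin D carrier, was at 5.60 FPKM in Ret null gut and 2.25 FPKM in wildtype gut (1.31 ± 0.39). Hpx, which encodes the heme carrier hemopexin, was at 1.85 FPKM in Ret null gut and 0.598 FPKM in wildtype gut (1.63 ± 0.65), with q = 0.00753 in the authors' deposited table. Its call was lost when p was taken from the statistic alone, read as a normal deviate.

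Among the inhibitors and matrix-binding proteins of plasma, Ambp encodes the precursor of alpha-1-microglobulin and of bikunin, a protease inhibitor that is joined to the heavy chains of the Itih genes. Ambp stood at 37.6 FPKM in Ret null gut and 11.4 FPKM in wildtype gut (log2 fold change 1.72 ± 0.23). Its partner gene Itih2 stood at 8.06 FPKM in Ret null gut and 0.276 FPKM in wildtype gut (4.87 ± 0.58; chr2:10094591-10130683). The other heavy chain genes remained under 1 FPKM and were not tested. Itih3 was at 0.698 FPKM in Ret null gut and 0.0754 FPKM in wildtype gut. Itih1 was at 0.403 FPKM in Ret null gut and 0.0300 FPKM in wildtype gut, and Itih4 at 0.169 FPKM in Ret null gut and 0.00917 FPKM in wildtype gut. All 4 heavy chain genes were thus higher by value in Ret null gut, and Itih2 was the highest of them in both genotypes.

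Vtn, which encodes the adhesion protein vitronectin, stood at 5.69 FPKM in Ret null gut and 1.17 FPKM in wildtype gut (log2 fold change 2.28 ± 0.47). Ahsg, which encodes fetuin-A, a mineral-binding inhibitor of calcification, stood at 3.26 FPKM in Ret null gut and 0.407 FPKM in wildtype gut (3.00 ± 0.88). Its relative Fetub was low in both genotypes, at 0.0524 FPKM in Ret null gut and 0.0705 FPKM in wildtype gut, and was not tested. Kng1, which encodes the kininogen from which kinins are cut, stood at 1.16 FPKM in Ret null gut and 0.0474 FPKM in wildtype gut. Its log2 fold change of 4.61 ± 2.74 has the widest error of the called members, with q = 0.0153 in the authors' deposited table, and the call was lost with p from the statistic.

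**Figure D2:**
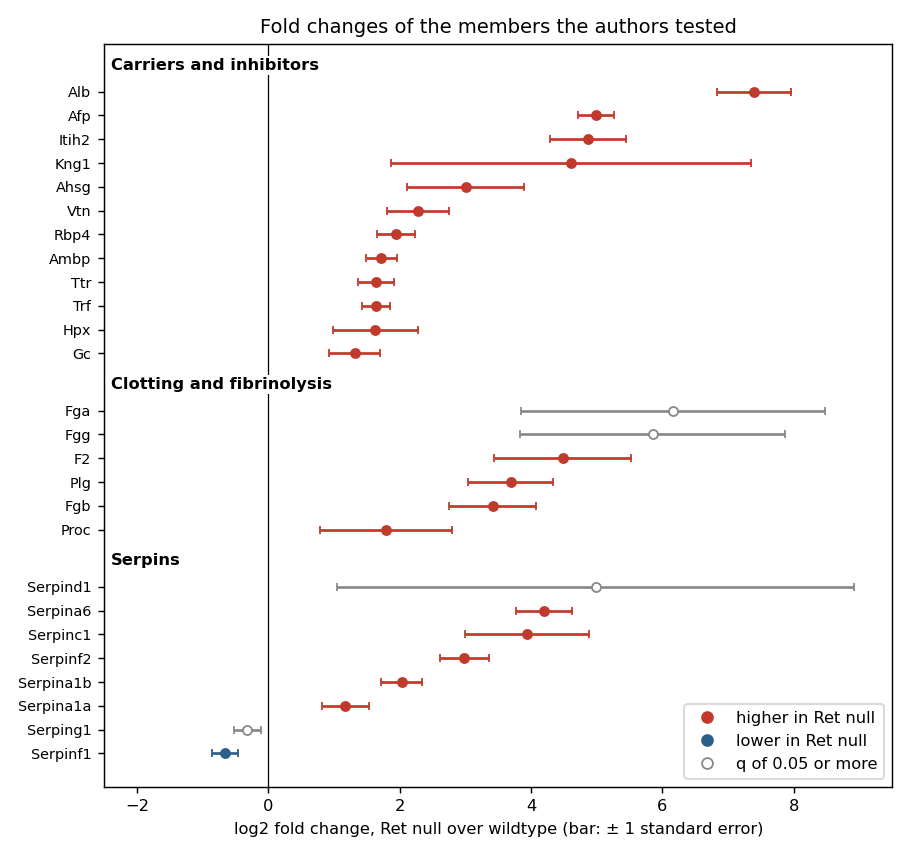
Log2 fold changes of the 26 tested members, Ret null over wildtype, grouped by role, with bars of 1 standard error implied by the authors' statistic; filled red points rose, the filled blue point fell and open grey points did not pass. Alb lies farthest right of the filled points at 7.39, Fga, Fgg and Serpind1 are open in spite of values of 4.99 to 6.16, and Serpinf1 and Serping1 lie left of 0.

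The clotting and fibrinolysis genes were all low, and none reached 5 FPKM in either genotype. Of the 12, 4 rose (Fgb, Plg, F2 and Proc), Fga and Fgg were tested without passing and 6 were not tested. Their summed level was 17.4 FPKM in Ret null gut and 1.97 FPKM in wildtype gut, and the median log2 fold change was 0.80 with 1 FPKM added. That median depends on the added value because these genes are low: it was 2.32 with 0.1 FPKM added, 3.41 with none added over genes above 0 in both genotypes, and 1.68 with 1 FPKM added over the genes that reached 1 FPKM. With none added it was above those of the carriers and of the serpins (2.51), while with 1 FPKM added it was below both. All of the 6 tested genes were under 1 FPKM in wildtype gut, so they were tested through their Ret null value. At that wildtype level 33.2% of all tested lines were called higher.

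The 3 chains of fibrinogen, the precursor of the fibrin clot, had like values in Ret null gut but not the same call. Fgb stood at 4.06 FPKM in Ret null gut and 0.381 FPKM in wildtype gut, and rose by 3.41 ± 0.66 on the log2 scale. Fgg stood at 2.43 FPKM in Ret null gut and 0.0421 FPKM in wildtype gut (5.85 ± 2.02), with q = 0.588 in the authors' deposited table. Fga, whose promoter is among those shown, stood at 2.09 FPKM in Ret null gut and 0.0292 FPKM in wildtype gut (6.16 ± 2.32), with q = 0.481 in the authors' deposited table. The uncalled chains thus had the larger fold changes with the larger errors. With 1 FPKM added to each genotype the log2 fold changes of Fgb, Fgg and Fga were 1.87, 1.72 and 1.59.

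Plg, which encodes plasminogen, the precursor of the protease that dissolves clots, stood at 3.12 FPKM in Ret null gut and 0.242 FPKM in wildtype gut (log2 fold change 3.69 ± 0.65; chr17:12378609-12419384). F2, which encodes prothrombin, stood at 2.48 FPKM in Ret null gut and 0.111 FPKM in wildtype gut (4.48 ± 1.04), with q = 0.00924 in the authors' deposited table. Proc, which encodes the anticoagulant protease protein C, stood at 1.12 FPKM in Ret null gut and 0.324 FPKM in wildtype gut (1.80 ± 1.003). Its q was 0.0141 in the authors' deposited table, and the call was lost with p from the statistic. The 4 genes that rose thus include prothrombin and a fibrinogen chain, which form a clot, and plasminogen and protein C, which dissolve or limit it. The line of F2 spans 11095 bases, against 24061 for the gene in RefSeq.

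The untested clotting genes were split by value. F12, which encodes the protease that starts the contact pathway, was at 0.921 FPKM in Ret null gut and 0.0167 FPKM in wildtype gut, and F10 at 0.754 FPKM in Ret null gut and 0.377 FPKM in wildtype gut. F5, the cofactor of the protease encoded by F10, was at 0.323 FPKM in Ret null gut and 0.329 FPKM in wildtype gut. The line of F5 spans 105011 bases, against 68443 for the gene in RefSeq, so its value is uncertain. F7, the partner of tissue factor, was at 0.117 FPKM in Ret null gut and 0.101 FPKM in wildtype gut. F13b, the carrier subunit of the fibrin cross-linking enzyme, was at 0.0278 FPKM in Ret null gut and 0.0136 FPKM in wildtype gut, and F9 was listed at 0 in both. No call can be given for these 6 genes.

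All 8 serpins were tested, and they were the group with the least uniform direction: 5 rose, 1 fell and 2 did not pass. At 1 FPKM or more in wildtype gut 4 of 6 serpins rose, beside 4.86% of all tested lines called higher at that level. Under 1 FPKM in wildtype gut 1 of 2 rose, beside 33.2% of all tested lines. Serpina6, which encodes the carrier of corticosteroids in plasma, stood at 27.6 FPKM in Ret null gut and 1.5002 FPKM in wildtype gut (log2 fold change 4.202 ± 0.42). Serpinf2, which encodes the main inhibitor of plasmin, stood at 12.6 FPKM in Ret null gut and 1.59 FPKM in wildtype gut (2.98 ± 0.37; chr11:75431736-75439501). Serpinc1, which encodes antithrombin, stood at 2.04 FPKM in Ret null gut and 0.133 FPKM in wildtype gut (3.94 ± 0.94), with q = 0.00318 in the authors' deposited table. Serpina6 had the largest change among serpins at 1 FPKM or more in wildtype gut. Serpind1, which encodes heparin cofactor II, was at 2.23 FPKM in Ret null gut and 0.0704 FPKM in wildtype gut (4.99 ± 3.94) and did not pass, with q = 0.522 in the authors' deposited table. Its line spans 150476 bases, against 12204 for the gene in RefSeq, so its value is uncertain.

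The exceptions were the pair most abundant in wildtype gut. Serpinf1, which encodes the secreted antiangiogenic protein PEDF, stood at 22.4 FPKM in Ret null gut and 35.4 FPKM in wildtype gut (log2 fold change -0.66 ± 0.20; chr11:75410029-75422623), and was the only member that fell. Serping1, which encodes the inhibitor of the complement protease C1, was at 16.4 FPKM in Ret null gut and 20.4 FPKM in wildtype gut (-0.32 ± 0.21), with q = 0.0787 in the authors' deposited table. The fall of Serpinf1 was 1.58-fold, smaller than the change of any member that rose.

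The alpha-1-antitrypsin genes rose too. Serpina1b stood at 16.9 FPKM in Ret null gut and 4.13 FPKM in wildtype gut (log2 fold change 2.03 ± 0.31), and Serpina1a at 8.70 FPKM in Ret null gut and 3.85 FPKM in wildtype gut (1.17 ± 0.35). These are near-identical copies. Of the windows of 75 bases, the read length, in the longest GENCODE transcript, 57.5% of those of Serpina1a and 25.1% of those of Serpina1b also occur in other genes, mainly other Serpina1 copies, so reads can be split between them. All 5 copies from Serpina1a to Serpina1e rose, 2.07-fold to 4.09-fold (Serpina1c and Serpina1d not with p from the statistic), and their sum was 38.0 FPKM in Ret null gut and 12.6 FPKM in wildtype gut. Of the other members, 31 shared no such window with another gene, Trf shared 78.6% with the overlapping model Gm20425, Kng1 10.6% with Kng2, and F10 0.206% with Rgs7bp.

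**Figure D3:**
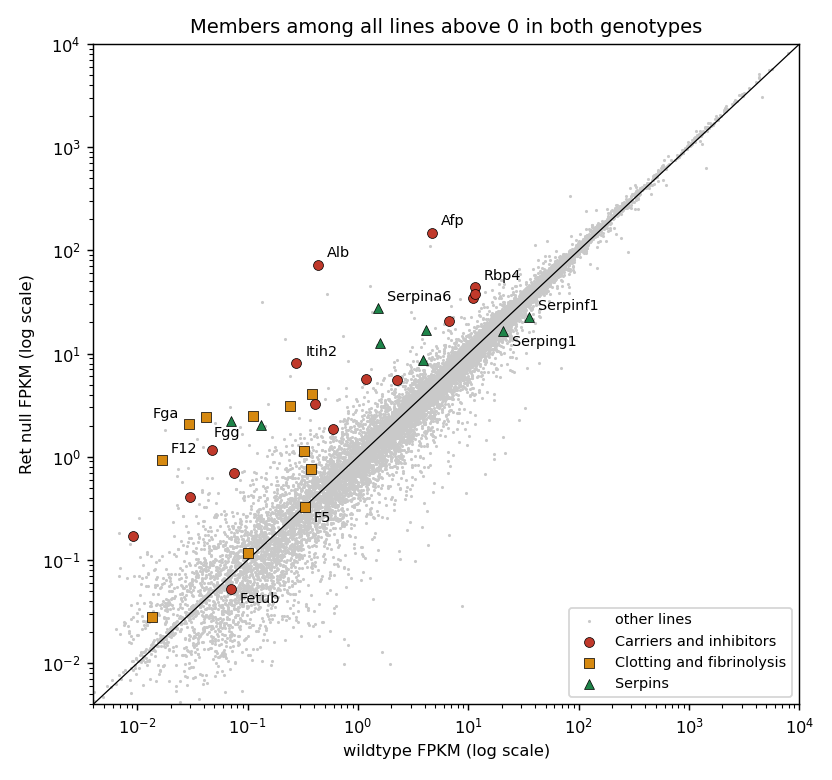
Ret null FPKM against wildtype FPKM on log axes for all lines above 0 in both genotypes (grey) and for 35 members coloured by role, with the line of equal values. Most members lie above the line, with Alb at 72.8 and Afp at 148 FPKM in Ret null gut among the points farthest from it, while Serpinf1, Serping1, F5 and Fetub lie on or below it.

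Several members lie next to each other in the genome, and neighbours did not always move together. Alb and Afp, 14.1 kb apart on chromosome 5, both rose. The fibrinogen genes on chromosome 3, with gaps of 11.1 kb and 8.6 kb, were all higher by value. Serpinf1 and Serpinf2, 9.1 kb apart on chromosome 11, moved in opposite directions, with log2 fold changes of -0.64 and 2.39 with 1 FPKM added. Ahsg and Fetub, 18.9 kb apart on chromosome 16, had 1.599 and -0.02 on that scale. Itih4, Itih3 and Itih1 lie side by side on chromosome 14 and were low in both genotypes, as were F7 and F10, 1.5 kb apart on chromosome 8. Distances are from RefSeq on GRCm38.p6, the build that mm10 also names.

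**Figure D4:**
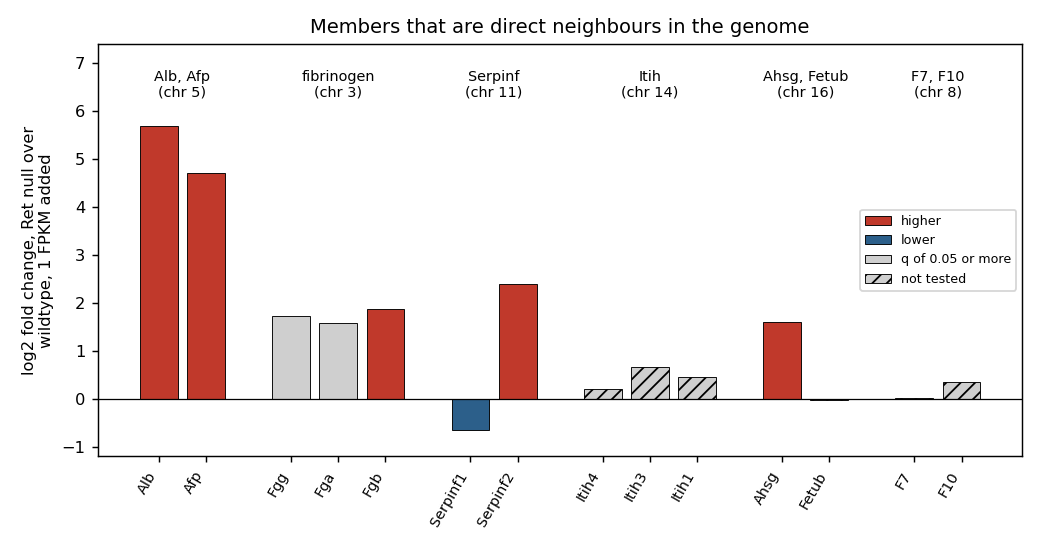
Log2 fold change with 1 FPKM added, Ret null over wildtype, for members that are direct neighbours among protein-coding genes, in genome order; red bars rose, the blue bar fell, plain grey bars did not pass and hatched bars were not tested. Alb and Afp stand at 5.69 and 4.72, the fibrinogen genes between 1.59 and 1.87, and Serpinf1 and Serpinf2 on opposite sides of 0.

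Plasma protein genes outside the 36 members were counted in the same way. Most lines of other carriers, complement and Serpina genes were untested and low, and adding 1 FPKM holds the median of such lists near 0 whatever their fold changes, so these medians are not set against that of the members. Of 30 other genes of clotting and fibrinolysis, which are mostly receptors, vessel wall proteins and inhibitors, 2 rose, 3 fell, 17 did not pass and 8 were not tested (median log2 fold change -0.02 with 1 FPKM added). Vwf, which encodes the platelet-binding protein of endothelium, was at 5.85 FPKM in Ret null gut and 9.92 FPKM in wildtype gut and fell. The thrombin receptor gene F2r fell as well, at 50.6 FPKM in Ret null gut and 70.1 FPKM in wildtype gut, a call lost with p from the statistic, while the protease receptor gene F2rl1 rose to 5.63 FPKM in Ret null gut, against 2.69 FPKM in wildtype gut. Of 23 other plasma carriers and secreted liver proteins 2 rose, 2 fell and 17 were not tested (median 0.01). The risers were Cpn1, a carboxypeptidase subunit that cuts kinins, at 11.7 FPKM in Ret null gut and 3.06 FPKM in wildtype gut, and Afm, the albumin relative afamin, at 1.89 FPKM in Ret null gut and 0.851 FPKM in wildtype gut, whose call was lost with p from the statistic. Lifr, whose soluble form circulates in mouse plasma, fell to 6.07 FPKM in Ret null gut, against 10.7 FPKM in wildtype gut. The plasma carrier gene Hp, named after its value was seen, fell to 0.388 FPKM in Ret null gut, against 1.16 FPKM in wildtype gut. The call of Hp was lost with p from the statistic.

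Of 25 lines of complement genes, many but not all of which encode liver products, 3 rose, 1 fell and 14 were not tested (median log2 fold change 0.02 with 1 FPKM added). C1qa, C1qb and C1qc, which did not pass, are also counted among the macrophage lines below. C3, the central component, stood at 1.65 FPKM in Ret null gut and 0.300 FPKM in wildtype gut, Cfi at 3.60 FPKM in Ret null gut and 0.675 FPKM in wildtype gut, and Cfb at 2.30 FPKM in Ret null gut and 0.750 FPKM in wildtype gut. Of 11 further Serpina genes the 3 risers were Serpina1c, Serpina1d and Serpina1e, and the other 8 were not tested (median 0.02). Orm1, Mug2, Azgp1 and Serpina3k, abundant products of the adult liver in mouse and named after their values were seen, were listed at 0 in both genotypes.

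Markers of the cells that are known to make these transcripts were counted next. Of 20 hepatoblast regulators 10 rose, 1 fell, 4 did not pass and 5 were not tested. Their log2 fold changes had a median of 0.44 with 1 FPKM added, and their summed level was 106 FPKM in Ret null gut and 79.5 FPKM in wildtype gut. None was at 0 in Ret null gut. Hnf4a, the nuclear receptor that governs hepatic genes, stood at 6.299 FPKM in Ret null gut and 1.99 FPKM in wildtype gut. Foxa1 and Foxa2, which gut endoderm also expresses, stood at 15.7 and 7.09 FPKM in Ret null gut, against 4.23 and 1.32 FPKM in wildtype gut. The regulators that follow were named after their values were seen. Tbx3 fell to 9.53 FPKM in Ret null gut, against 15.003 FPKM in wildtype gut. Its call was kept with p from the statistic. Prox1 and Gata6 were lower by value without passing. They were at 1.24 and 18.9 FPKM in Ret null gut, against 1.81 and 22.99 FPKM in wildtype gut. Gata4 and Cebpb did not pass either and were higher by value. Of 19 hepatoblast surface and metabolism lines 3 rose, 1 fell and 12 were not tested, and the liver genes Hamp and Cyp3a16 were listed at 0 in both genotypes. Dlk1, the most abundant of these lines and named after its value was seen, did not pass. It was at 167 FPKM in Ret null gut and 153 FPKM in wildtype gut. Tdo2 and Cps1, enzymes of tryptophan breakdown and of the urea cycle, stood at 2.62 and 1.15 FPKM in Ret null gut, against 0.899 and 0.498 FPKM in wildtype gut, and Ass1, another urea cycle enzyme, was at 3.86 FPKM in Ret null gut and 6.45 FPKM in wildtype gut and fell. With p from the statistic 0 of these 4 calls remained, and of the 11 calls among hepatoblast regulators 5 did.

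Of 20 yolk sac visceral endoderm markers, cells that make several of the same carriers, 4 rose, 2 fell and 9 did not pass (median 0.18), with sums of 136 FPKM in Ret null gut and 141 FPKM in wildtype gut and none at 0. Tmprss2 and Apob rose to 6.91 and 1.96 FPKM in Ret null gut, against 3.01 and 1.02 FPKM in wildtype gut, and Ctsh fell to 6.75 FPKM in Ret null gut, against 11.2 FPKM in wildtype gut. The call of Ctsh was lost with p from the statistic. Amn and Cubn, the receptor pair typical of these cells and named after their values were seen, were not tested, at 0.433 and 0.520 FPKM in Ret null gut and 0.299 and 0.606 FPKM in wildtype gut. Their part in the rise of the carriers was not tested.

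Neighbouring tissues differed between the genotypes as well. Of 9 stomach mesenchyme markers 6 rose and 1 fell (median 0.73), with sums of 401 FPKM in Ret null gut and 249 FPKM in wildtype gut, led by Barx1 at 109 FPKM in Ret null gut and 4.46 FPKM in wildtype gut and Sfrp5 at 12.1 FPKM in Ret null gut and 1.47 FPKM in wildtype gut. Of 12 pancreatic bud markers 4 rose and 1 fell (median 0.53; sums of 76.0 FPKM in Ret null gut and 35.99 FPKM in wildtype gut), with Gcg at 51.1 FPKM in Ret null gut and 20.03 FPKM in wildtype gut. Of 10 skeletal muscle markers 7 fell and 0 rose (median -2.97), with sums of 12.6 FPKM in Ret null gut and 157 FPKM in wildtype gut, and Myh3, at 0.686 FPKM in Ret null gut and 14.006 FPKM in wildtype gut, was among those that fell. Of 10 mesothelium markers 3 rose and 3 fell, with Krt19 at 37.0 FPKM in Ret null gut and 20.5 FPKM in wildtype gut and Wt1 at 25.1 FPKM in Ret null gut and 43.2 FPKM in wildtype gut. The part of these differences, and of the Xist value, in the rise of the plasma protein genes was not tested.

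Among blood lineages, 0 of 11 megakaryocyte and platelet lines and 0 of 12 macrophage lines passed the authors' Cuffdiff test, with medians of -0.14 and -0.07. Of the platelet lines 2, and of the macrophage lines 0, had in the authors' deposited table an unadjusted p under 0.05, and 0 of either passed with p from the statistic. Pf4 was at 13.7 FPKM in Ret null gut and 20.7 FPKM in wildtype gut, and C1qb and C1qc at 13.3 and 15.5 FPKM in Ret null gut, against 14.5 and 15.5 FPKM in wildtype gut. Of 13 erythroid lines 5 rose and 3 fell. The erythroid regulator gene Gata1 stood at 3.12 FPKM in Ret null gut and 0.906 FPKM in wildtype gut, while the embryonic globin gene Hbb-bh1 fell to 96.8 FPKM in Ret null gut, against 281 FPKM in wildtype gut.

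**Figure D5:**
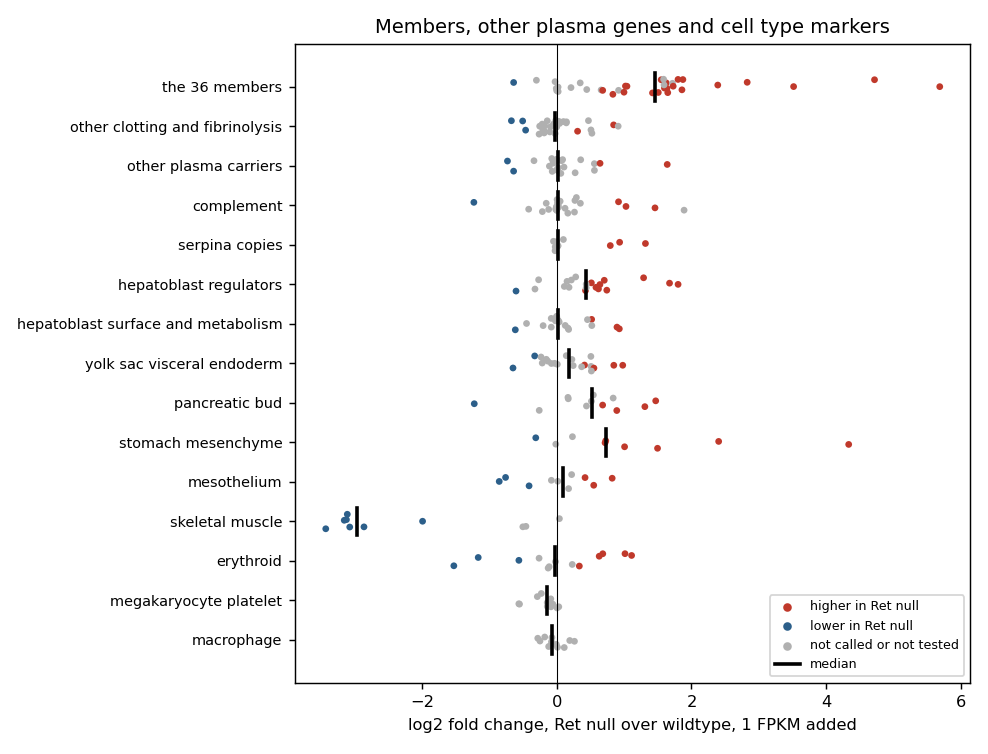
Log2 fold change with 1 FPKM added, Ret null over wildtype, for each of the 36 members, of the other plasma genes and of the cell type markers, with a black bar at each list's median. The members' median is 1.46, and those of hepatoblast regulators, stomach mesenchyme and skeletal muscle are 0.44, 0.73 and -2.97. Medians of the other plasma lists lie near 0. All of these but the clotting list hold mostly untested lines, and their medians are not set against that of the members.

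The p-values in the authors' deposited table do not follow from its test statistics for every gene, so p was also computed from the statistic as a normal deviate and adjusted over the tested lines. By that rule 4.5% of tested lines were called, and 18 members were higher and 1 was lower. Hpx, Kng1 and Proc were the members whose call was lost, and no member gained one.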

How the data were processed

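Messenger RNA of whole guts was sequenced from 3 Ret null and 3 wildtype samples; TruSeq libraries were made from polyadenylated RNA, per the labels' protocols. The submitters' processing notes list Picard, TopHat2, Cufflinks, Cuffdiff and mm10. Versions, settings and annotation were not given in the sources used here. Analysis rested on a deposited table that has 1 FPKM value per genotype and none per sample; how the authors combined the samples into it is not stated in the labels. Its p-value and q-value columns and its test statistic, a score read here as the log2 fold change over its standard error, are the authors' own, per the file headers. The columns are labelled w and h, read as wildtype and homozygous null.

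Of 23234 lines, 1 held 2 records run together and was not used. The deposited log2 column holds error text in 590 cells, so log2 fold changes were recomputed from FPKM. Adjusting the deposited p-values by Benjamini-Hochberg over 13430 tested lines gave the deposited q-values to within 5.9e-05. With no values per sample, no fit or leave-one-out of samples could be made. Nothing says that samples came from separate litters, so the p-values cannot be read as measuring the spread between litters. The settings of the authors' test are not given, so what spread its p-values measure is unknown, and it may be technical. No counting intervals are given because depth is unknown. The 36 members, their groups and all lists were chosen with earlier results of these data known. Every member is named; from other lists up to 3 called genes by smallest q and then largest change are named, or the 2 highest with no call. Some results that this rule takes are not reported here. Member lines equalled the RefSeq span exactly in 17 cases, after raising starts by 1, and coordinates of gene lines are printed only for these. Promoters came from RefSeq on GRCm38.p6 and transcripts from GENCODE. Ttr, Trf, Kng1, Plg, Proc, Serpina6 and Serping1 had no promoter match. Alignments of proteins were not run. Python 3.11.15, numpy, pandas, scipy 1.17.1 and matplotlib were used, and the adjustment was tested on simulated data.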

Additional observations from a re-analysis of the deposited data

How the results depend on the processing

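The direction of every median kept its sign under the pseudocounts, the scaling to the upper quartile (a shift of -0.04 on the log2 scale) and the filters that were run. With no FPKM added, over members above 0 in both genotypes, the median log2 fold change was 2.98 for all members, 2.64 for carriers and inhibitors, 3.41 for clotting and fibrinolysis and 2.51 for serpins. With 0.1 FPKM added it was 2.32 for clotting and fibrinolysis and 2.46 for serpins, and over members at 1 FPKM or more in a genotype it was 1.68 for clotting and fibrinolysis. Requiring 5 FPKM in a genotype left 13 members higher in all and 0 in clotting and fibrinolysis, because fewer genes enter. With the authors' deposited q required to be under 0.1, there were 2 members lower, all of them serpins (Serpinf1 and Serping1), and with a minimum change of 2-fold 0 members were lower, in all and among serpins. With that q under 0.01, Kng1 and Proc lost their calls. With p from the statistic, calls in most other lists were fewer. Hepatoblast regulators had 5 in place of 11, hepatoblast surface and metabolism 0 in place of 4, and stomach mesenchyme 5 in place of 7. Yolk sac endoderm and mesothelium each had 3 in place of 6, and the pancreatic bud 3 in place of 5. Erythroid genes had 4 in place of 8 and other clotting genes 2 in place of 5. Other carriers had 2 in place of 4 and Serpina copies 1 in place of 3. The complement and skeletal muscle lists kept their counts. Other alternatives kept each count of members within 1.5 times. No paired analysis was possible because the table holds 1 value per genotype, and for the same reason no replicate could be left out. Low values limit the precision: the median standard error was 1.003 for the 11 tested members under 5 FPKM in Ret null gut and 0.31 for the other 15.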

Other observations

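The calls of low members do not follow the size of the authors' statistic. Fgg and Fga had test statistics of 2.90 and 2.66 and were not called, with p = 0.252 and 0.176 in the authors' deposited table, whereas Proc and Kng1 had test statistics of 1.79 and 1.68 and were called, with p = 0.0015 and 0.00165 in the authors' deposited table. As normal deviates the statistics of Fgg and Fga gave adjusted p of 0.0738 and 0.13, so these genes did not pass by either rule. The cause was not tested.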
